A study of Mus musculus with 6 samples.

Results

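A group of 10 neuropeptide genes was followed across 6 Affymetrix mouse expression arrays of whole pituitary glands. They were Nmu, Gal, Nmb, Tac1, Vip, Nts, Cck, Npy, Penk and Pdyn, 10 of the 12393 genes that the array annotation names alone, and each had 1 probe set. Nmu and Gal prompted the choice of the group by their signal on the arrays labelled Bmal1-/-, where Nmu was higher and Gal lower than in wild type, so their genotype differences are given as a description with no test. The other 8 genes are named here as peptides of the same kind, and all 10 were chosen with earlier results of these arrays known.

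The mice were C57BL/6J males, 8 to 12 weeks old, under daily cycles of 12 light and 12 dark hours, with 3 arrays labelled Bmal1-/- (replicates 4 to 6) and 3 of wild-type animals (replicates 1 to 3). Bmal1-/- mice lack BMAL1, a transcription factor that binds E-box elements together with CLOCK or NPAS2 and so drives the circadian clock, and the labels name no allele, Cre driver or other transgene. All glands were taken at zeitgeber time 12, when the lights go off, and each array carried RNA pooled from 3 glands. Values are MAS5 intensities on a linear scale, and the small number of arrays limits the precision.

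Neuropeptides are cut from larger precursors inside secretory granules, trimmed and often amidated at their end, and act through G protein-coupled receptors on nearby or distant cells. In the pituitary some reach the gland from hypothalamic nerve endings, while others are made by the hormone cells and act within the gland. In rodents galanin is a product of lactotrophs, the prolactin cells, and promotes their growth and secretion. Neuromedin U acts on feeding, stress responses and rhythms, and in rats its transcript is found in the pars tuberalis, the part of the gland nearest the brain.

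The gland and the labels were checked first. All 7 hormone subunit genes were bright, the dimmest of them being Fshb, the FSH beta subunit, with a mean intensity of 2244 on the arrays labelled Bmal1-/- and 2742 on wild-type arrays. Their summed intensity did not overlap, at 103300 to 109400 on the arrays labelled Bmal1-/- and 116100 to 131300 in wild type. That sum is over 11 probe sets, since Gh and Pomc have more than 1 each. Arntl, the gene that encodes BMAL1, read 112.1, 102 and 127.5 on the arrays labelled Bmal1-/-, against 39.6, 51.7 and 38.6 in wild type, so its signal was higher where the gene is labelled as lost. Where its probe set lies relative to the deleted part is not known here, and a probe set outside that part checks nothing. Every direction below is therefore relative to arrays labelled Bmal1-/-. Pairs of arrays of 1 genotype had Pearson's r of 0.980 to 0.986 over the tested probe sets, and pairs of different genotypes 0.970 to 0.976.

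The promoters are shown because BMAL1 binds E-boxes and because 3 of these genes carry one at nearly the same place. RefSeq windows (GRCm38.p6) of the 250 bases before the annotated start were found for 9 of the 10 genes, with 2 windows for Pdyn, and Penk had none. The searched letters, on both strands, were the E-box CACGTG, its variant CACGTT, the REV-ERB and ROR core site AGGTCA, the cAMP response element TGACGTCA, its short form TGACG (which lies within the full element) and the TATA box TATAAA. Below are the last 120 bases before the start of the 3 genes with an E-box and of Gal, on the strand of each gene, with every match in capitals. They lie at chr5:76363778-76363897 (Nmu, minus strand), chr6:7554941-7555060 (Tac1, plus strand), chr9:121495695-121495814 (Cck, minus strand) and chr19:3414545-3414664 (Gal, minus strand).
Nmu: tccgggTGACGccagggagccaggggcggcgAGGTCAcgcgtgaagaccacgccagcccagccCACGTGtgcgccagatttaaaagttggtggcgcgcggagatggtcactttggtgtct
Tac1: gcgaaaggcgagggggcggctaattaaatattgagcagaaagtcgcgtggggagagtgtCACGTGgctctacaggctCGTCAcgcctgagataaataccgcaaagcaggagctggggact
Cck: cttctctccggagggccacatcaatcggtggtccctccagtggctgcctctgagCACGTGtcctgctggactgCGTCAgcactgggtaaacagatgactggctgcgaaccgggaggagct
Gal: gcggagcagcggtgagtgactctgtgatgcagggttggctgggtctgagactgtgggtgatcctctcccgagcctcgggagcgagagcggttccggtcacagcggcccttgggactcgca

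The E-box began 57 bases before the start in Nmu, 61 in Tac1 and 66 in Cck. It was present in 3 of the 9 genes, and in 6.02% of all 32851 promoter windows of this length. Nmu also held an AGGTCA core site 89 bases before the start, a motif found in 14% of all windows. The short form TGACG was present in 5 of the 9 genes (Nmu, Tac1, Vip, Nts and Cck), against 17.8% of all windows, and only Vip held a TATA box in these letters. None of the 6 motifs was found in the windows of Gal, Nmb, Npy and Pdyn. A match is a stretch of letters and not a measured binding site. Of the 3 genes with an E-box, Nmu, chosen by its direction, and Cck were higher on every array labelled Bmal1-/- than on every wild-type array. Tac1, a dim gene, overlapped. The part of the E-boxes in these values was not tested.

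**Figure D1:**
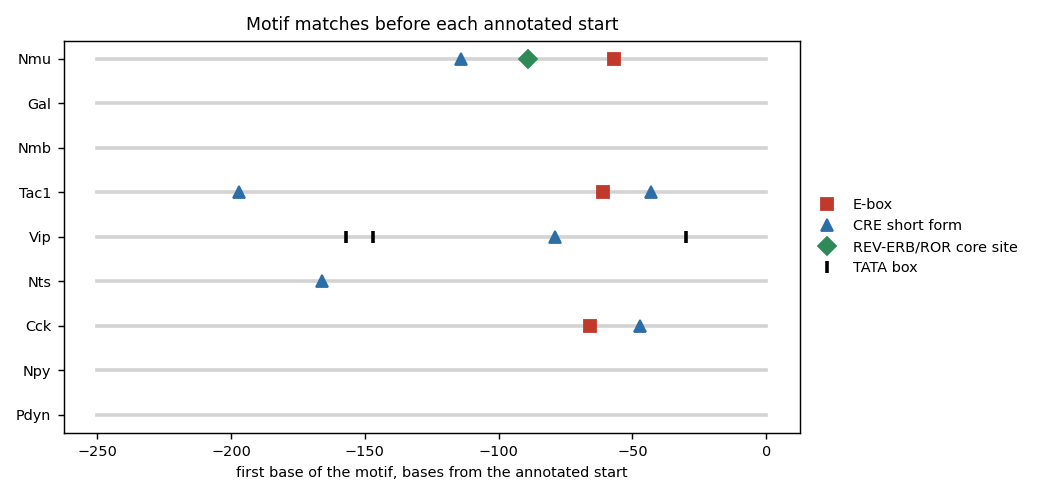
Positions of the motif matches in the 250 bases before the annotated start of 9 neuropeptide genes (x axis, bases from the start, with the start at 0). The E-box squares of Nmu, Tac1 and Cck lie between 57 and 66 bases before the start, and the lines of Gal, Nmb, Npy and Pdyn carry no match.

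Nmu, the neuromedin U gene, showed the largest difference among the 10. Its probe set read 86.7, 58.1 and 57.6 on the arrays labelled Bmal1-/-, against 10.4, 5.9 and 6.3 in wild type. Every array labelled Bmal1-/- lay far above every wild-type array, and replicate 4 was the highest. The means were 67.5 ± 16.7 on the arrays labelled Bmal1-/- and 7.53 ± 2.49 in wild type (SD, n = 3 each). On the scale of log2(intensity + 16), used for all differences here, this is 1.81 (SE 0.17). The added 16 damps noise at low signal and shrinks the difference of dim genes: with 1 in its place the Nmu difference was 3.02, and with 64 it was 0.87. The wild-type level lies under 17.3, the mean level of the dimmest probe set that was tested, so Nmu entered the tested 60% of probe sets through its arrays labelled Bmal1-/-.

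In these whole glands fewer cells of a type and less RNA per cell cannot be told apart, for Nmu and for every gene below. Markers of thyrotrophs, the TSH cells, are given beside Nmu because the pars tuberalis is rich in such cells. Of 4 listed markers 1 rose and none fell, where 3.00% of all genes tested rose. It was Dio2, which activates thyroid hormone, with a log2 difference of 1.11 (SE 0.10, limma adjusted p = 6.94e-05). Tshb, the TSH beta subunit, had a difference of -0.04, Trhr, the TRH receptor, one of 0.12, and Gata2, a transcription factor of these cells, one of -0.18, and none of the 3 passed. The brighter Gata2 probe set was lower without overlap and its other one, at 0.15, overlapped. The summed intensity of the list overlapped between the genotypes, at 4206 to 4992 on the arrays labelled Bmal1-/- and 4132 to 4593 in wild type. The part of these cells in the Nmu difference was not tested.

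Gal, the galanin gene, was lower on the arrays labelled Bmal1-/-. It read 27.2, 28.4 and 24.8 there, against 54.3, 64.9 and 78.7 in wild type. The genotypes did not overlap, and the arrays labelled Bmal1-/- lay close together while wild type spread more widely. The means were 26.8 ± 1.83 on the arrays labelled Bmal1-/- and 66.0 ± 12.2 in wild type (SD, n = 3 each), a log2 difference of -0.93 (SE 0.15). With 1 added in place of 16 the difference was -1.25, and with 64 it was -0.51. Beside Gal, the lactotroph markers differed little. None of the 3 measured ones passed: Prl, prolactin itself, had a log2 difference of -0.11 (SE 0.06), Esr1, the oestrogen receptor, one of -0.06, and Drd2, the dopamine receptor that restrains prolactin release, one of -0.02. Their summed intensity overlapped, at 12550 to 13590 on the arrays labelled Bmal1-/- and 13220 to 15160 in wild type.

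**Figure D2:**
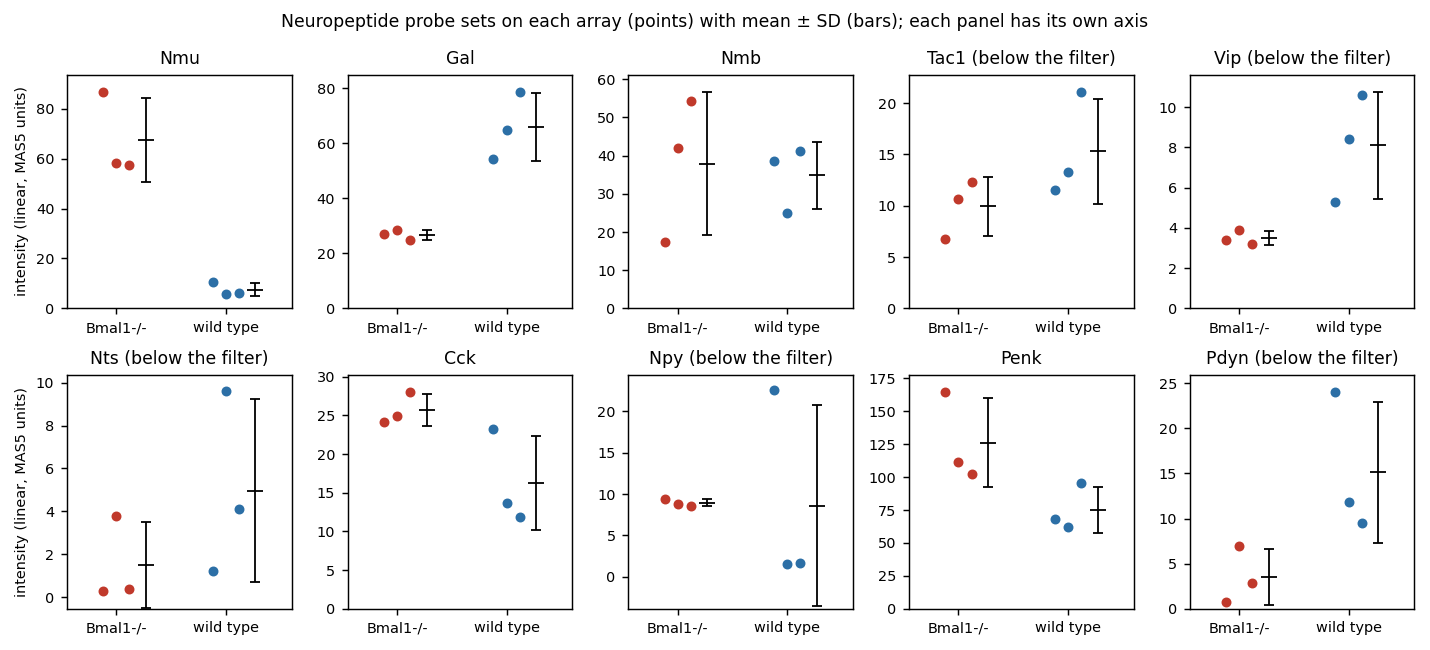
MAS5 intensity (y axis, linear, its own range in each panel) of the 10 neuropeptide probe sets on the 3 arrays labelled Bmal1-/- (red points) and the 3 wild-type arrays (blue points), with the mean and SD of each genotype as black bars. Nmu, Cck and Penk do not overlap between genotypes and are higher on the arrays labelled Bmal1-/-, Gal, Vip and Pdyn do not overlap and are lower, and Npy has a single high wild-type array.

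Across the 10 genes the direction was mixed. The genotypes did not overlap at 6 of them, with the arrays labelled Bmal1-/- above wild type in 3 and below it in 3, and 4 overlapped. Over all 22626 probe sets other than controls, 20.7% did not overlap, 9.07% with the arrays labelled Bmal1-/- above wild type and 11.6% with them below. Since Nmu and Gal were chosen by this contrast, nothing is read from that count. Of the 8 others, 4 did not overlap, 2 in each direction. Only 5 of the 10 genes, Nmu, Gal, Nmb, Cck and Penk, were among the tested 60% of probe sets. None of the 3 tested genes besides Nmu and Gal passed limma's adjusted p of 0.05, a threshold that 5.54% of all 13576 tested probe sets passed. At an unadjusted p under 0.05, 2 of the 3 passed (Penk and Cck), a threshold that 21% of all tested probe sets passed. Like Nmu, Cck entered the test through its arrays labelled Bmal1-/-, since its wild-type mean of 16.2 lies under the floor of 17.3, and its p is conditioned on that.

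Of the opioid precursors among the members, Penk had a difference above 0 and Pdyn one below 0, and neither passed the threshold. Penk encodes the enkephalins, which act mainly at delta and mu opioid receptors. It read 164.6, 111.4 and 102.2 on the arrays labelled Bmal1-/-, against 68.3, 62.3 and 95.2 in wild type. The genotypes did not overlap, but the lowest array labelled Bmal1-/- was only just above the highest of wild type. The log2 difference of Penk was 0.63 (SE 0.18, 95% interval 0.25 to 1.01), with a limma adjusted p = 0.0576. It missed the threshold under every alternative tried, with adjusted p from 0.0514 (robust eBayes) to 0.180, the last without the highest array, Bmal1-/- replicate 4, where the difference was 0.44.

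Pdyn encodes the dynorphins, which act at the kappa opioid receptor. It read 0.8, 6.9 and 2.9 on the arrays labelled Bmal1-/-, against 24, 11.8 and 9.5 in wild type. The genotypes did not overlap, all values were low, and the probe set lay among the dimmest 40% that were left out of the test. When every probe set was fitted, its log2 difference was -0.65 (SE 0.20, limma adjusted p = 0.152). Oprk1, the kappa receptor gene, was chosen for mention after its values were seen. It read 40.2, 18.4 and 18.8 on the arrays labelled Bmal1-/-, against 10.8, 7.5 and 3.8 in wild type, with no overlap. It too was below the filter, and fitted with all probe sets its difference was 0.81 (SE 0.22, adjusted p = 0.121).

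Cck encodes cholecystokinin, a gut and brain peptide that acts on satiety and on pituitary hormone release. It read 24.2, 24.9 and 28 on the arrays labelled Bmal1-/-, against 23.2, 13.7 and 11.8 in wild type. The arrays labelled Bmal1-/- were close together and all above wild type, although wild-type replicate 1 lay only 1 unit below them. The log2 difference was 0.39 (SE 0.17, 95% interval 0.01 to 0.76, limma adjusted p = 0.219), and without wild-type replicate 1 it was 0.54 (adjusted p = 0.119). Cckbr, the receptor for cholecystokinin and gastrin, had 2 probe sets that disagreed, both below the filter. This gene too was picked out after its values were seen. The first read 16.8, 10.2 and 35.3 on the arrays labelled Bmal1-/-, against 1.9, 2.8 and 1.7 in wild type (log2 difference 0.96, SE 0.23, adjusted p = 0.0792 with all probe sets fitted). The second read 12.4, 14.9 and 8.8 on the arrays labelled Bmal1-/-, against 14.4, 10.6 and 16.3 in wild type, and overlapped.

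Nmb, which encodes neuromedin B, a bombesin-like peptide that restrains TSH release in rats, had no settled direction. It read 17.5, 41.9 and 54.4 on the arrays labelled Bmal1-/-, against 38.5, 24.9 and 41.1 in wild type. The arrays labelled Bmal1-/- spanned the whole wild-type range. The log2 difference was 0.03 (SE 0.24, limma adjusted p = 0.956), and its 95% interval of -0.50 to 0.56 leaves room for a change of either sign. Its direction turned when wild-type replicate 2 or Bmal1-/- replicate 5 or 6 was left out, and the values without 1 array ran from -0.19 to 0.34. Nmb lies on chromosome 7, as Arntl does, and whether that position bears on its level was not tested.

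**Figure D3:**
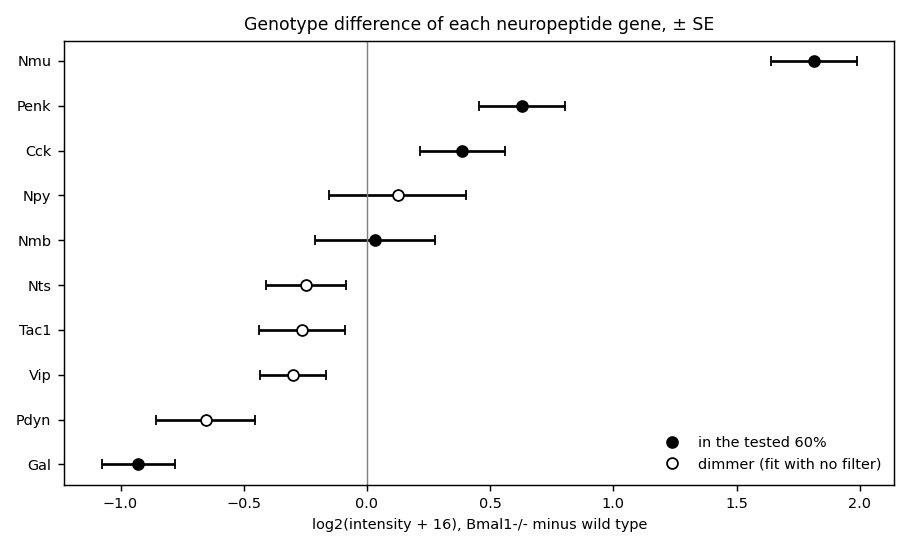
Difference in log2(intensity + 16) between the arrays labelled Bmal1-/- and wild type (x axis) for each neuropeptide gene, as the fitted value with its standard error. Filled points were in the tested 60% of probe sets and open points come from the fit of all probe sets. Nmu at 1.81 and Gal at -0.93, which prompted the group, stand at the ends, with Penk, Cck and Pdyn next to them.

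The remaining members were dim. Vip encodes vasoactive intestinal peptide, which stimulates prolactin release and synchronises neurons of the suprachiasmatic nucleus, the brain's clock. Its probe set read 3.4, 3.9 and 3.2 on the arrays labelled Bmal1-/-, against 5.3, 8.4 and 10.6 in wild type, with no overlap. Its log2 difference in the fit of all probe sets was -0.30 (SE 0.13, limma adjusted p = 0.324). Tac1, the precursor of substance P and neurokinin A, read 6.8, 10.7 and 12.3 on the arrays labelled Bmal1-/-, against 11.5, 13.3 and 21.1 in wild type. The genotypes of Tac1 overlapped narrowly.

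Nts encodes neurotensin, a peptide of brain and gut. It read 0.3, 3.8 and 0.4 on the arrays labelled Bmal1-/-, against 1.2, 9.6 and 4.1 in wild type, and overlapped. Npy encodes neuropeptide Y, a potent stimulus of feeding. It read 9.4, 8.8 and 8.6 on the arrays labelled Bmal1-/-, against 22.6, 1.5 and 1.7 in wild type, so a single array carried the wild-type mean. Tac1, Nts and Npy had log2 differences of -0.27, -0.25 and 0.12, with adjusted p of 0.519, 0.523 and 0.879 in limma's fit of all probe sets. No detection calls were used, so these values do not show whether the peptides in the dimmest 40% were transcribed in the gland.

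Peptides of the posterior lobe matter here because galanin and dynorphin are also made by the hypothalamic neurons whose axons end there. Oxt, oxytocin, read 96.9, 81.8 and 104.3 on the arrays labelled Bmal1-/-, against 146.4, 113.8 and 191.5 in wild type, and did not overlap. Its log2 difference was -0.57 (SE 0.16, limma adjusted p = 0.0565), which passed without wild-type replicate 2 (-0.74, adjusted p = 0.0135) and not without any other array (from -0.64 to -0.40, the last without wild-type replicate 3 at adjusted p = 0.190). Avp, vasopressin, was below the filter and read 4.2, 4 and 5.3 on the arrays labelled Bmal1-/-, against 6.2, 3.4 and 18.4 in wild type.

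Of the 17 listed neuron markers 15 were on the array and 8 were tested. None passed, 6 of the 8 had differences below 0 (50.1% of all genes tested did), and the summed intensity overlapped, at 490.9 to 603.4 on the arrays labelled Bmal1-/- and 586.4 to 732.4 in wild type. The neurofilament gene Nefm was lower, with a log2 difference of -0.51 (adjusted p = 0.0684), while Nefh was higher, at 0.38 (adjusted p = 0.136). Of 6 markers of pituicytes, the glia of the posterior lobe, only Vim was tested, at -0.30 (adjusted p = 0.186). The summed intensity of these 6 did not overlap, at 200.5 to 217.7 on the arrays labelled Bmal1-/- and 253.7 to 321.3 in wild type. The 3 Vim probe sets made up most of it, at 174.2 to 192.7 on the arrays labelled Bmal1-/- and 211.2 to 283.2 in wild type, and Vim is not specific to pituicytes. All 3 Vim probe sets were tested. The brightest, whose difference is given above, overlapped, as did the dimmest (-0.14, limma adjusted p = 0.625). The remaining Vim probe set was lower without overlap on the arrays labelled Bmal1-/- (-0.57, adjusted p = 0.0602). The other 5 genes, all below the filter, together summed to 25 to 28.4 on the arrays labelled Bmal1-/- and 36.1 to 42.5 in wild type. Most of that gap lay in Gfap, whose probe sets each overlapped. They averaged 9.37 and 2.67 on the arrays labelled Bmal1-/-, against 17.9 and 5.93 in wild type. No probe set of the list was at 0 on any array. Those of the defining transcription factor genes overlapped between genotypes: Rax averaged 2.13 on the arrays labelled Bmal1-/- and 4.60 in wild type, Nkx2-1 averaged 5.97 on the arrays labelled Bmal1-/- and 4.67 in wild type, and Lhx2 averaged 1.5 on the arrays labelled Bmal1-/- and 0.93 in wild type. Other cell types had such gaps too. The macrophage sum was lower without overlap, at 430.5 to 515.3 on the arrays labelled Bmal1-/- and 611.1 to 699.6 in wild type. So was the sum of folliculostellate cells, at 863.6 to 996.6 on the arrays labelled Bmal1-/- and 1334 to 1528 in wild type. The endothelial, red blood cell and mast cell sums overlapped. The part of posterior lobe material in the Gal, Pdyn and Vip differences was not tested.

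Receptors for these peptides were mostly dim. Of 28 listed receptor genes 27 were on the array, with 40 probe sets, and only 2 probe sets were tested. Neither passed limma's threshold. Both had an unadjusted p under 0.05, as did 21% of all tested probe sets. Sort1, sortilin, which binds neurotensin and sorts proteins inside the cell, read 172.3, 157 and 185.4 on the arrays labelled Bmal1-/-, against 137.4, 143.7 and 125.8 in wild type (log2 difference 0.31, SE 0.11, limma adjusted p = 0.114). The genotypes did not overlap at this probe set, while the 2 other Sort1 probe sets, both below the filter, overlapped with differences of 0.03 and -0.04. Ntsr2, a neurotensin receptor, read 12.4, 18 and 3.6 on the arrays labelled Bmal1-/-, against 38.6, 17.4 and 25.4 in wild type (log2 difference -0.67, SE 0.23, adjusted p = 0.119), and overlapped. Its mean of 11.3 on the arrays labelled Bmal1-/- lies under 17.3, so it entered the test through its wild-type arrays and its p is conditioned on that. Among all 40 receptor probe sets 4 did not overlap, which is 10%, against 20.7% of all probe sets.

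The receptors of the peptides that prompted the group were all below the filter. Nmur1, a neuromedin U receptor, read 1.1, 1.1 and 2.7 on the arrays labelled Bmal1-/-, against 1.6, 8.3 and 13 in wild type. Nmur2, the other one, read 7.3, 14.9 and 7.7 on the arrays labelled Bmal1-/-, against 7.9, 0.9 and 6 in wild type. Both overlapped. Galr2, a galanin receptor, read 0.4, 1 and 0.7 on the arrays labelled Bmal1-/-, against 6, 2.1 and 8.6 in wild type, without overlap. The 2 probe sets of Galr1 overlapped, with means of 3.00 and 6.70 on the arrays labelled Bmal1-/- and 3.53 and 7.90 in wild type.

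Genes of the same peptide families were dimmer still. Of 15 listed relatives, such as Tac2, Adcyap1, Grp and Pnoc, 12 were on the array and none was in the tested share. The highest genotype mean among them was 12.8, for Tac4 in wild type. Of 40 other listed neuropeptide genes 25 were on the array and 4 were tested. None passed limma's threshold, and 1 (Oxt) had an unadjusted p under 0.05, against 21% of all tested probe sets. The median log2 difference of the 4 was -0.19, against 0.00 over all 8033 genes tested. Besides Oxt, Apln, which encodes apelin, a ligand of vessels and neurons, had a log2 difference of 0.21 (adjusted p = 0.326).

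The measured genes of the machinery that cuts and finishes the precursors were all tested, and they differed in both directions. Of 9 measured genes 3 fell, 1 rose and 5 did not pass, where 5.66% of all 8033 genes tested changed, 2.66% downward and 3.00% upward. Qpct, the glutaminyl cyclase that closes the first residue of peptides such as neurotensin, read 80.6, 68.8 and 76 on the arrays labelled Bmal1-/-, against 113.7, 114.2 and 109.9 in wild type (log2 difference -0.50, SE 0.11, limma adjusted p = 0.0255). Its genotypes did not overlap. Pam, which amidates the end of peptides such as galanin and neuromedin U, read 141.9, 159.7 and 146.9 on the arrays labelled Bmal1-/-, against 238.4, 299.5 and 200.2 in wild type (-0.65, SE 0.13, adjusted p = 0.0149). Pcsk1, a convertase that cuts precursors, also fell (-0.50, adjusted p = 0.0194), and Pcsk1n, its inhibitor, rose (0.32, adjusted p = 0.0476). Markers of the hormone cells, which hold this machinery, are given beside it. Of the 7 hormone subunits Gh (-0.27, adjusted p = 0.0217) and Cga (-0.31, adjusted p = 0.0190) fell. The other 5 did not pass, with Lhb above 0 (0.18) and Fshb, Pomc, Prl and Tshb from -0.28 to -0.04. Ghrhr, the somatotroph receptor for GHRH, also fell (-0.66, adjusted p = 0.00553). The somatotroph sum, nearly all of it from the Gh probe sets, was 55130 to 59310 on the arrays labelled Bmal1-/- and 64260 to 72870 in wild type. The sums of the lactotroph, gonadotroph and thyrotroph lists overlapped. That of corticotrophs and melanotrophs, nearly all of it from the Pomc probe sets, was lower without overlap on the arrays labelled Bmal1-/-. None of the tested genes of that list passed. The part of these cells in the processing differences was not tested.

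The trimming enzyme Cpe and the convertase helper Scg5 had log2 differences of -0.02 and 0.01, with adjusted p of 0.904 and 0.940 in limma. Cpd was higher, at 0.43 (limma adjusted p = 0.0670), and did not pass. The median of the 9 genes was -0.21, with 3 differences above 0 and 6 below. Of their 14 probe sets 57.1% did not overlap, against 20.7% of all probe sets. On the arrays labelled Bmal1-/- 4 of these were higher and 4 lower. The higher ones were that of Pcsk1n and otherwise only probe sets of Cpd, so that gene was counted more than once. The lower ones belonged to different genes, Pcsk1, Pam, Qpct and Ctsl. The calls, more than the sizes, changed when 1 array was left out. This ended the Pam call without Bmal1-/- replicate 4 (-0.61, adjusted p = 0.0537), the Pcsk1 call in the absence of wild-type replicate 3 or replicate 5 of the others (-0.43 and -0.42, adjusted p at most 0.0864), the Qpct call in the absence of any array but wild-type replicate 2 and Bmal1-/- replicate 4 (-0.51 to -0.45, at most 0.100), and the Pcsk1n call in the absence of any array but wild-type replicate 2 (0.23 to 0.34, at most 0.155).

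**Figure D4:**
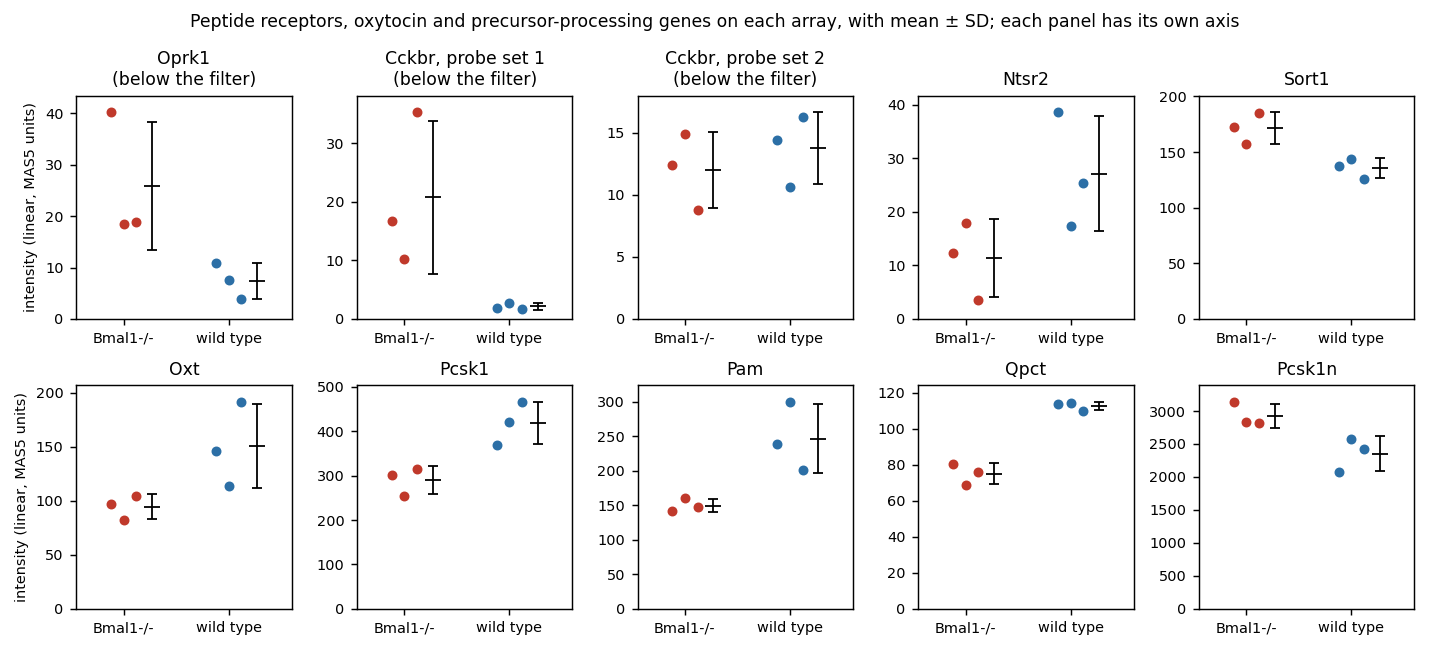
MAS5 intensity (y axis, linear, its own range in each panel) of peptide receptor genes, oxytocin and precursor-processing genes on the arrays labelled Bmal1-/- (red points) and wild-type arrays (blue points), with mean and SD as black bars. Oprk1 and the first Cckbr probe set are higher without overlap on the arrays labelled Bmal1-/-, Oxt, Pcsk1, Pam and Qpct are lower without overlap, and the second Cckbr probe set overlaps.

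The genes whose levels followed each peptide most closely over the 6 arrays were taken by Pearson's r on the log2 scale, as a description of 6 points that fall into 2 genotypes. For Nmu they were Ing2, a chromatin reader (r = 0.997), Tollip, an adaptor of innate immune signalling (0.996), and Zmynd8 (0.992). The log2 differences of these 3 were 0.51, 0.33 and 0.37. For Gal they were Tef, a PAR-domain transcription factor of the clock output (0.999, log2 difference -0.85), Prodh, proline dehydrogenase (0.998, -0.98), and Fam241b (0.998, -0.32). Prodh also ranked second for Gal on deviations from the genotype means (r = 0.991). Its mean of 10.9 on the arrays labelled Bmal1-/- lies under the floor of 17.3. On such deviations the closest gene of every tested member had r of at least 0.994, picked as the best of all genes tested. For Nmu it was Srsf11, whose own log2 difference was -0.06. For Penk the closest were Bcas2 (0.985), Ccnt1 (0.983) and Slc20a2 (0.982), and for Cck they were C9orf72 (0.994), Ndufs5 (0.993) and St3gal6 (0.989). For Nmb they were Cyb5r3 (0.966), Plekhf1 (0.962) and Cyb5d1 (0.959).

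The differences of the 5 tested genes were then followed through the alternatives. Nmu stayed between 1.66 and 1.90 when any 1 array was left out, and Gal between -1.03 and -0.82. Penk ran from 0.44 to 0.78 and Cck from 0.29 to 0.54. The choice of pseudocount moved Nmu and Gal further than any array did.

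**Figure D5:**
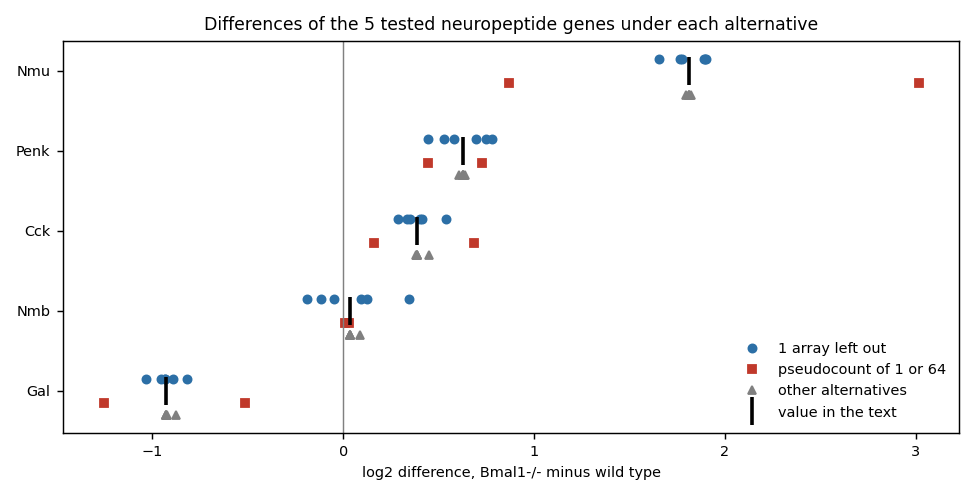
Difference in log2 intensity between the arrays labelled Bmal1-/- and wild type (x axis) for the 5 tested neuropeptide genes, as reported (black line), with 1 array left out (blue), with a pseudocount of 1 or 64 (red) and under the other alternatives (grey). Nmu, Penk and Cck stay above 0 and Gal below 0 in every one, and Nmb lies on both sides of 0. The genotypes of Nmu, Penk, Cck and Gal did not overlap. Leaving out an array or changing the pseudocount therefore could not turn their sign.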

How the data were processed

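The deposited values are linear intensities, 1 for each probe set on each array. Per the submitters' processing notes the authors made these intensity values with MAS5, which summarises probe pairs after a mismatch-based background correction and scales each array. Which version was used is not known here, and detection calls were not used. With the lowest and highest 2% of values left out, every array averaged 100, the level to which the arrays appear scaled. Low MAS5 values are noisy.

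Of 22690 probe sets, 64 controls were left out. The platform annotation pairs 20393 with 1 gene, 691 with several and 1606 with none, and genes were named only from the first kind. Values were taken as log2(intensity + 16), and the brightest 60% of probe sets by their mean log2 value, 13576, were tested. The genotypes were compared with limma 3.58.1 in R 4.3.3 (lmFit, eBayes with an intensity trend, two-sided, Benjamini-Hochberg over all tested probe sets, threshold 0.05). Members below the filter were fitted with all probe sets. Per gene of a list, the brightest tested probe set was used. The fit was tested on simulated data.

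The members and lists were chosen with earlier results of these data known. Named genes were every member, the receptors of Nmu and Gal, list genes past the threshold (or the 2 with the smallest p) and 3 genes of closest pattern per tested member. List genes below the filter that are named beyond these, and those under Other observations, were picked with their values in view. Replicates are separate pools of glands.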

Additional observations from a re-analysis of the deposited data

How the results depend on the processing

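No paired analysis was possible because the labels number the wild-type arrays 1 to 3 and the others 4 to 6. The 752 probe sets past the threshold became 330 when dim probe sets were kept and 407 without the intensity trend in eBayes, and ran from 312 to 939 with 1 array left out. Of the 8 members besides Nmu and Gal, and of the receptors and family relatives, 0 passed under every alternative run. In the other neuropeptides the count of 0 became 1 with estimated array weights (Oxt, lower), 1 with the mean of all tested probe sets of a gene, and 0 to 1 with 1 array left out. The 4 called processing genes became 1 with no filter and 1 without the intensity trend, and 1 to 4 with 1 array left out. The Nmu difference was 3.02 with a pseudocount of 1 and 0.87 with 64, and the Gal difference -1.25 and -0.51. The Nmb difference of 0.03 ran from -0.19 to 0.34 with 1 array left out. Tests with 1 array fewer also have less power, and the cause of lost calls was not tested. The top 40% of probe sets left no value for Nmu, Gal, Nmb and Cck. Dim probe sets, where MAS5 noise is large against the signal, limit what can be said of 5 of the 10 genes.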

Other observations

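Among peptide genes below the filter, Nppc and Npff were singled out after their values were seen, because their genotypes did not overlap. Nppc encodes C-type natriuretic peptide, which signals through cyclic GMP. It read 28.4, 18.4 and 18.1 on the arrays labelled Bmal1-/-, against 4.5, 4.8 and 12.4 in wild type, and its log2 difference was 0.70 (SE 0.19, limma adjusted p = 0.117 with all probe sets fitted). Npff encodes neuropeptide FF, a modulator of opioid signalling. It read 5.1, 2.9 and 9.2 on the arrays labelled Bmal1-/-, against 17.6, 15.9 and 12.8 in wild type, with a log2 difference of -0.54 (SE 0.16, adjusted p = 0.143). Neither passed the threshold, and of the 29 probe sets of that list 17.2% did not overlap, against 20.7% of all probe sets.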
